A study of Homo sapiens with 15 samples.

Results

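The untreated MDA-MB-231 RNA, labelled with Cy3, was read on all 15 of the 15 2-colour arrays of the study, and its signal is described here without the treated channel. MDA-MB-231 is a human triple-negative breast cancer line with a mesenchymal shape and an invasive growth habit. The readings were taken by their dye: on each array the Cy3 channel was control RNA and Cy5 was RNA of treated cells. The 15 control readings fell into 3 sets of 5 arrays, named for the treatment of the other channel. The shCtBP2 set carried cells with stable RNA interference of CtBP2, the HIPP set cells given the small-molecule CtBP2 inhibitor HIPP, and the P4 set cells given the inhibitor P4, and cells were collected 24 hours after treatment. CtBP2 is a corepressor that binds NADH. Per the labels, the control was the untreated MDA-MB-231 line on every array, whereas the methods of the study name a scrambled shRNA as the control of the silenced cells, so the control of the shCtBP2 set may have carried that construct. Only 1 cell line was measured, so no value below compares it with another cell type.

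Breast epithelium has an inner luminal layer, which makes keratins 8, 18 and 19 and the hormone receptors, and an outer basal layer, which makes keratins 5 and 14 and contractile proteins. Triple-negative tumours lack the estrogen receptor, the progesterone receptor and an excess of the growth factor receptor HER2, the products of ESR1, PGR and ERBB2. Cells that leave the epithelial state lose E-cadherin, the product of CDH1, and gain the intermediate filament vimentin, the product of VIM.

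Each array held 43376 gene spots for 41000 different probes of 60 bases, and 17471 genes with a current symbol were measured. A probe was called detected on an array where the scanner software marked it as well above its local background. Within each array all probes were ranked by signal, and a rank is given as a percentile, where 100 is the brightest probe. A level is the log2 signal minus the 75th percentile of the array, so that 0 is the brightness of a probe at that percentile. Probes of equal RNA amount differ in brightness, so ranks describe the arrays and are not molecule numbers. The percentile and level of a gene with several probes are those of its brightest one unless stated, whereas a gene was counted as detected on an array where any of its probes was. Between 64.9% (shCtBP2 replicate 5) and 81.0% (HIPP replicate 3) of the spots on an array were well above background, and 0 spots were saturated. Repeated spots of the same probe differed by a median SD of 0.0492 to 0.0806 log2 units within an array.

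Some arrays stood apart before any comparison. On HIPP replicate 2, 56 probes lay over 8-fold below the median of the other 14 arrays and 2 lay over 8-fold above it, out of 25219 probes detected on the others. The same counts were 18 and 1 for shCtBP2 replicate 4 and 13 and 2 for shCtBP2 replicate 5, and at most 3 probes in all on each of the other 12 arrays. Of the 44 named genes with such a probe on HIPP replicate 2, 28 had another probe that did not stand apart. Those 38 other probes lay a median of 0.246 log2 units from the remaining arrays. Any other probe over 8-fold away was left out of that median, so it describes only probes within that distance. The arrays lay on 4 slides. Of the P4 set, replicates 1 to 4 shared slide 1, the only slide of its scan day, and replicate 5 shared slide 2 with the first 3 HIPP replicates. HIPP replicates 4 and 5 lay on slide 3 beside the first 2 of the shCtBP2 set, whose other 3 lay on slide 4.

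Of the 6 receptor and lineage markers, VIM, KRT18 and ERBB2 were detected on all 15 arrays, ESR1 on 11, and PGR and CDH1 on 0. VIM encodes vimentin and lay at percentile 99.9, with levels of 6.50, 6.89 and 7.56 for the lowest, median and highest array. Its other probe lay at percentile 99.6. KRT18, a luminal keratin, lay at percentile 99.1 with levels from 5.66 to 6.24. ERBB2 lay at percentile 79.8, with levels of 0.48, 0.71 and 1.00 for the lowest, median and highest array. PGR lay at percentile 13.6 and at most at percentile 18.4 on an array, and at percentile 4.13, 7.24 or 4.01 with the other 3 ways of taking the signal. CDH1 lay at percentile 10.3, with 6.65 and 13.3 as its lowest and highest values. PGR and CDH1 were each read by only 1 probe, so their lack of detection rests on that probe. By their brightest probes, VIM, KRT18, ERBB2 and ESR1 had the same order on all arrays, in the sense that their percentile ranges did not overlap. The ranges of PGR and CDH1 overlapped. The order depended on the probe: the dimmest probes of ERBB2 (30.7 to 40.9) and KRT18 (36.95 to 43.9) overlapped the range of the brightest ESR1 probe (26.5 to 42.2). The share of all named genes detected on all 15 arrays was 70.5%, and 10.9% were detected on 0. The counts of the gene lists below are to be read against these shares. Against the markers of the labelled line, PGR and CDH1 were not well above background, ESR1 was low, VIM was among the brightest genes, and the luminal keratin KRT18 was bright beside it.

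**Figure D1:**
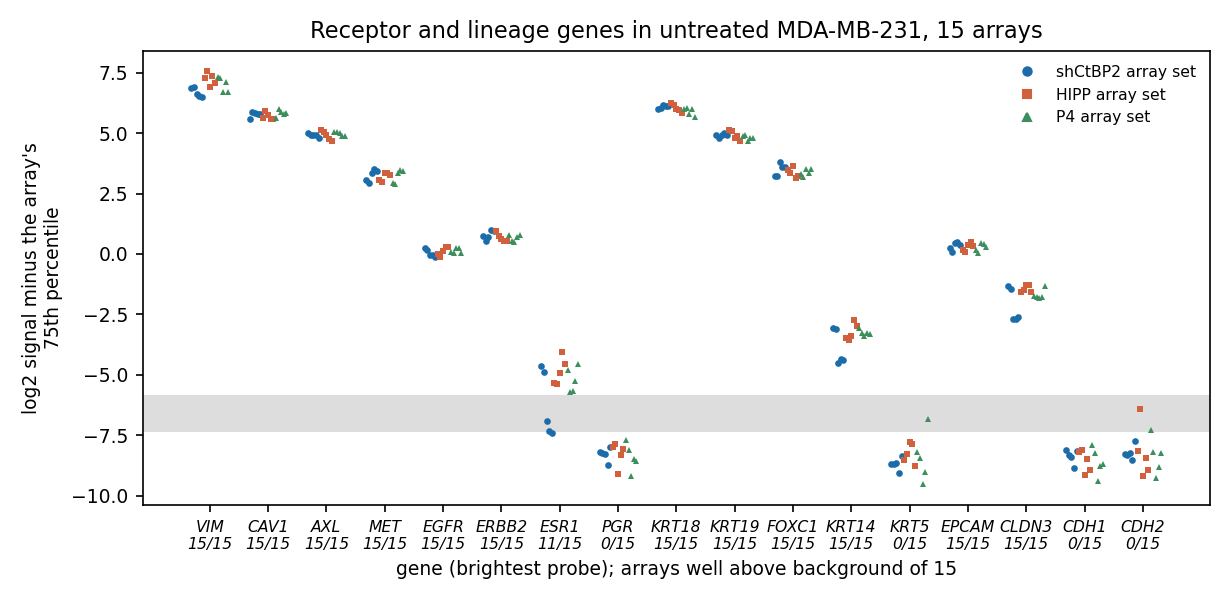
Level (log2 signal minus the array's 75th percentile) of 17 receptor and lineage genes in the control channel, with 1 point per array, colours and symbols for the 3 array sets, and the number of arrays well above background under each gene. The grey band spans, over the 15 arrays, the lowest level of a probe well above background (-7.35 to -5.87); VIM, CAV1 and KRT18 lie far above it, and PGR, KRT5, CDH1 and CDH2 were detected on 0 arrays.

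Detection of ESR1 and ERBB2 depended on the probe. The first 30 of the 60 probe bases are shown for these 5 probes, because the probe of the gene decides whether it reads as detected. Positions are those the files give on the hg17 build, and which part of the gene a probe lies in is not given in the sources used here.
ESR1, chr6:152221162-152221221, detected on 11 arrays: atgaccatgaccctccacaccaaagcatct
ESR1, chr6:152516022-152516081, detected on 4 arrays: tttttgcatccaattgtgcctgaactttta
ESR1, chr6:152115196-152221092, detected on 0 arrays: gcacagcacttcttgaaaaaggatgtagat
ERBB2, chr17:35138355-35138414, detected on 15 arrays: aatgggtgttgtatggggaggcaagtgtgg
ERBB2, chr17:35120176-35120235, detected on 12 arrays: acctacaacacagacacgtttgagtccatg
The ESR1 probes lay at percentiles 36.1, 22.0 and 3.59 in that order. The first had a GC content of 55.0%, the others 35.0% and 38.3%. On the shCtBP2 arrays the first ESR1 probe had levels of -4.64, -4.89, -6.91, -7.32 and -7.43. The HIPP arrays had -5.34, -5.39, -4.91, -4.04 and -4.55, and the P4 arrays -4.81, -5.71, -5.66, -5.27 and -4.55. The 3 lowest ESR1 values were those of slide 4. The ERBB2 probes lay at percentiles 79.8 and 33.9 at the same GC content of 55.0%. KRT18 likewise ranged over its 4 probes from percentile 99.1 to percentile 39.8, all detected on all 15 arrays. Of the 6884 genes with several probes, 421 were detected on all arrays by 1 probe and never by another.

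Among the 17 hormone and growth factor receptors, 12 were detected on all arrays (70.6%), 3 on some and 2 on 0 (11.8%). These shares were near the 70.5% and 10.9% of all genes, with a median percentile of 40.8 against 64.6 over all genes. AXL, a receptor tyrosine kinase of mesenchymal tumour cells, was the brightest at percentile 97.5, followed by MET, the hepatocyte growth factor receptor, at percentile 93.4 and NR3C1, the glucocorticoid receptor, at percentile 92.9. The ranges of MET (91.9 to 93.8) and NR3C1 (92.5 to 93.5) overlapped. EGFR lay at percentile 75.8 and was detected on all arrays. The second estrogen receptor gene, ESR2, lay at percentile 40.8. ERBB3 lay at percentile 40.8 on 15 arrays, and ERBB4 at percentile 4.62 on 0.

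Luminal genes were nearly all detected. Of 15, 14 were detected on all arrays (93.3%) and MUC1, a surface mucin, on 14, with a median percentile of 83.2. The brightest probe of KRT8 was detected on 14 arrays, because its signal was left out as an outlier on P4 replicate 1. Its 2 probes together were detected on 15. KRT18 was the brightest, MLPH, a melanophilin, lay at percentile 98.1, KRT19 at percentile 97.3 and XBP1, a transcription factor of secretory cells, at percentile 95.8. FOXA1 and GATA3, transcription factors of the luminal lineage, lay at percentiles 76.3 and 49.5. AGR2, TFF3 and TFF1, secretory genes that estrogen is known to raise in luminal cells, lay at percentiles 83.2, 78.0 and 75.2, each detected on all arrays.

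Basal and myoepithelial genes were lower. Of the 16 measured, 9 were detected on all arrays (56.25%), 5 on some and 2 on 0 (12.5%), with a median percentile of 42.2. FOXC1, a transcription factor of basal-like tumours, stood highest at percentile 93.7. KRT5 (percentile 3.17) and KRT6B (percentile 6.79) were detected on 0 arrays, KRT17 on 1 and TP63, the regulator of the basal layer, on 3. KRT14 was detected on all arrays at percentile 50.8, and ITGB4, the hemidesmosome integrin, at percentile 84.6. The 50 genes of the PAM50 subtype panel were detected on all arrays in 43 cases (86%), on some in 5 and on 0 in 2 (4%). KRT5 was lowest and PTTG1, a mitotic securin, highest.

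Of 19 epithelial adhesion genes, 13 were detected on all arrays (68.4%), 3 on some and 3 on 0 (15.8%), near the 70.5% and 10.9% of all genes, with a median percentile of 60.6. The 3 genes at 0 were CDH1, ELF3 and GRHL2, where ELF3 and GRHL2 encode transcription factors of epithelial cells. EPCAM lay at percentile 77.4 and DSP, the desmosome plaque protein, at percentile 91.0. The claudins of tight junctions, CLDN7, CLDN3, CLDN4 and CLDN1, lay at percentiles 65.4, 62.6, 59.95 and 54.7 and were detected on all arrays. The ranges of CLDN3 (56.0 to 65.2) and CLDN4 (57.2 to 62.7) overlapped.

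Mesenchymal genes were high in the median, with 17 of 20 detected on all arrays (85%), 2 on some and 1 on 0 (5%), at a median percentile of 78.2. VIM and LGALS1, a secreted galectin, both lay at percentile 99.9, CAV1, the caveola coat protein, at percentile 98.8, TGFBI at percentile 98.2 and CDH11, a mesenchymal cadherin, at percentile 92.5. CDH2, which encodes N-cadherin, was detected on 0 arrays at percentile 12.0. Of the transcription factors that drive loss of E-cadherin, SNAI2 (percentile 74.2), SNAI1 (percentile 69.7), ZEB2 (percentile 67.5) and ZEB1 (percentile 48.2) were detected on all arrays, TWIST1 on 11 and TWIST2 on 3. High VIM signal stood beside CDH1 and CDH2 probes that were never detected, where each of these genes was read by only 1 probe.

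**Figure D2:**
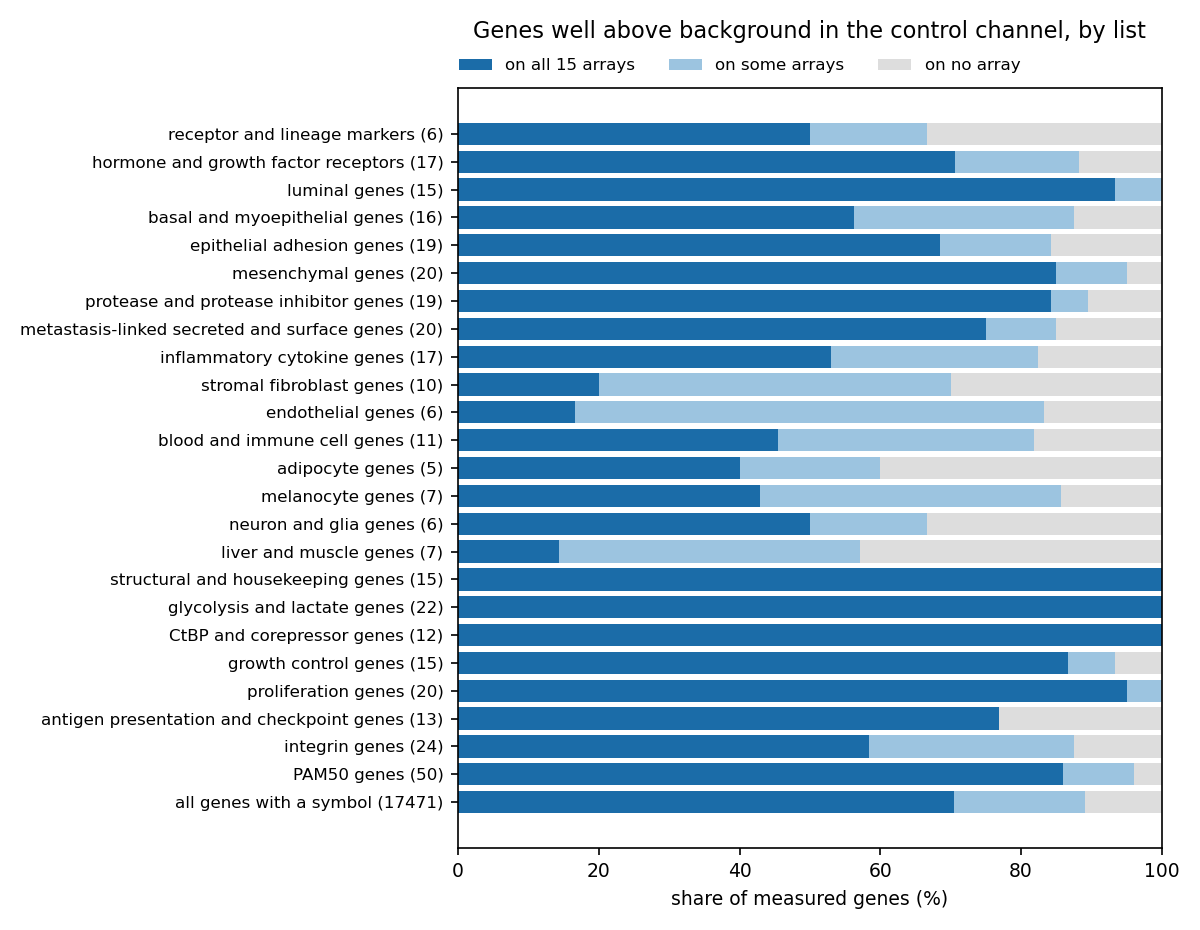
Share of the measured genes of each list (number of genes in parentheses) detected on all 15 arrays, on some, or on no array, with all named genes in the bottom bar. Every structural, glycolysis and CtBP corepressor gene was detected on all arrays, against 70.5% of all genes, and the stromal, endothelial, and liver and muscle lists had the smallest shares.

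Genes of other tissues gave a check on the cell type. In bulk RNA, fewer cells of a type and less RNA per cell cannot be told apart. Of 10 stromal fibroblast genes 2 were detected on all arrays, COL6A1 (percentile 93.2) and COL5A1 (percentile 63.9), and 3 on 0, COL3A1, LUM and FAP. Of 6 endothelial genes 1 was detected on all arrays (PECAM1, percentile 45.7) and TEK on 0. Of 11 blood and immune cell genes 5 were detected on all arrays and 2 on 0. PTPRC, the pan-leukocyte CD45 gene, and MS4A1, a B cell gene, were the genes at 0, whereas the single CD4 probe lay at percentile 76.5 and CD68, a lysosomal protein of macrophages, at percentile 75.4. Of 5 adipocyte genes 2 were detected on all arrays and 2 on 0 (LEP and FABP4), of 7 melanocyte genes 3 and 1 (TYRP1), of 6 neuron and glia genes 3 and 2 (SNAP25 and NEUROD1), and of 7 liver and muscle genes 1 (MYOD1) and 3 (ALB, TTR and CKM). TUBB3, a neuronal tubulin that many tumour lines also make, lay at percentile 96.9. The defining genes of these tissues were split. CD8A, CD14 and CSF1R, of T cells and macrophages, lay at percentiles 59.4, 50.4 and 63.7 and ADIPOQ, of adipocytes, at percentile 52.4, each detected on all arrays, and CD3E was detected on 14, whereas PTPRC, MS4A1, ALB and FABP4 were detected on 0.

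The brightest genes were those of protein synthesis. Of the 25 genes with the highest median percentile, EEF1A1, the elongation factor that carries aminoacyl-tRNA to the ribosome, ranked first with levels of 7.16, 7.61 and 8.33 for the lowest, median and highest array. RPLP0, RPL23A and RPS2 followed. In all, 18 ribosomal protein genes stood in the 25, others among them being RPS13, RPL35, RPS27, RPL13, RPS28, RPL19, RPS29, RPSA, RPS21, RPS25, RPL41, RPL27, RPL7A and RPL37A. The other 7 were EEF1A1, EEF1G, CCN1, ATP5MC3, XRCC6, TUBA1C and NME2P1. CCN1, a secreted matrix protein that binds integrins, had a median rank of 9 among 41000 probes, with levels from 6.84 to 7.79. XRCC6 encodes the Ku70 DNA repair protein, ATP5MC3 a subunit of ATP synthase, and NME2P1 is a pseudogene that shares sequence with NME2, so its signal is uncertain. The probe counted for RPSA is listed in the files under another name, LOC388524, at chr19:23802464-23802523, away from the RPSA gene on chromosome 3, and may read a copy of it, so its signal is uncertain too. The 6 further probes of RPSA lay down to percentile 95.6. Of the 25, 9 stood in the top 25 of every array, and a single array shared 15 to 21 of them. The percentile ranges of neighbours in this order overlapped, so the order within the 25 is not fixed. Of the 25, 9 remained when the median over the probes of a gene replaced its brightest one.

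Of the 100 brightest genes, 49 were ribosomal protein genes, out of 85 measured, and all 85 were detected on all arrays with a median percentile of 99.7. A further 4 were translation factors, 3 subunits of the chaperonin that folds actin and tubulin, 3 tubulins or actins, 3 subunits of the respiratory chain and 1 of the proteasome. VIM, LGALS1, PPIA, LDHB, NPM1, MCM7, GAPDH, S100A6, TMSB4X and MIF were among the others. ANXA2 had the widest percentile range among them, from 96.1 to 99.9.

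Genes of glycolysis and lactate, the pathway through which tumour cells turn glucose into lactate, were all detected on all arrays, 22 of 22, with a median percentile of 96.7. LDHB, a lactate dehydrogenase subunit, lay at percentile 99.8, GAPDH at percentile 99.6, ENO1, enolase, at percentile 99.2, and LDHA at percentile 98.8. The lactate exporter SLC16A3 lay at percentile 98.9, and the other monocarboxylate carrier, SLC16A1, at percentile 57.3. The glucose transporter SLC2A1 lay at percentile 93.8 and SLC2A3, the lowest of the list, at percentile 52.7. The CtBP and corepressor genes were likewise detected on all arrays, 12 of 12, with CTBP2 at percentile 96.5 (95.8 to 96.8) and CTBP1 at percentile 93.1 (92.5 to 93.4), ranges that did not overlap between these 2 probes. KDM1A, the LSD1 demethylase, lay at percentile 70.2, and SIRT4, a mitochondrial sirtuin, was lowest at percentile 41.8. All 15 structural and housekeeping genes were detected on all arrays at a median percentile of 99.5, with the basal transcription factor TBP lowest at percentile 75.4.

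Proliferation genes were high. Of 20, 19 were detected on all arrays, and TYMS, thymidylate synthase, on 14 because its spot was left out as an outlier on the remaining array. Their median percentile was 94.9. MCM7, a subunit of the replicative helicase, lay at percentile 99.8, MCM3 at percentile 97.7, BIRC5, survivin, at percentile 97.6, and MKI67, which encodes Ki-67, was the lowest at percentile 73.9. Of 15 growth control genes, 13 were detected on all arrays, CDK4 highest at percentile 96.5 and MYC at percentile 92.3. CDKN2A, CDKN2B and MTAP lie side by side on chromosome 9, in a stretch that MDA-MB-231 is known to have lost. The 2 CDKN2B probes (chr9:21994945-21995004 and chr9:21998979-21999038 on hg17) were detected on 0 arrays, and the 3 MTAP probes on 2, 0 and 0. The first CDKN2A probe (chr9:21957780-21957839) lay at percentile 15.1 and was detected on 1 array, whereas its other probe (chr9:21958039-21958098) lay at percentile 64.5 and was detected on all 15. In and beside that stretch CDKN2A-AS1, an antisense gene, was detected on 10 arrays and IFNA4, an interferon gene with near-identical relatives, on 14. Beyond CDKN2B, an unnamed probe (chr9:22002440-22002499) lay at percentile 98.4 and another (chr9:22145709-22145768) at percentile 91.4, both detected on all 15.

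Of 20 secreted and surface genes linked to metastasis, 15 were detected on all arrays (75%), 2 on some and 3 on 0 (15%), near the 70.5% and 10.9% of all genes, with a median percentile of 76.8. After CCN1, ID1, an inhibitor of differentiation factors, lay at percentile 98.3, CD44, the hyaluronan receptor, at percentile 94.8, CCN2 at percentile 94.6 and IL11, a cytokine, at percentile 92.7. CXCR4, a chemokine receptor, VCAM1 and ALDH1A1 were detected on 0 arrays. Of 19 protease and protease inhibitor genes, 16 were detected on all arrays (84.2%). PLAU, urokinase, was highest at percentile 99.3, CTSL, a cathepsin, lay at percentile 94.5, and MMP2 and MMP13, which degrade collagen, were detected on 0. Of 17 inflammatory cytokine genes, 9 were detected on all arrays (52.9%), 5 on some and 3 on 0 (17.65%), at a median percentile of 39.8. LIF stood highest at percentile 89.4, IL6 lay at percentile 51.1, CXCL8 was detected on 9 arrays, and IL1A on 0.

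Of 13 antigen presentation and checkpoint genes, 10 were detected on all arrays (76.9%) and 3 on 0 (23.1%). B2M, the light chain of class I molecules, and HLA-C lay at percentiles 96.9 and 96.8, and CD274, which encodes PD-L1, at percentile 54.5. The class II genes HLA-DRA and CD74 and the adhesion gene NECTIN4 were detected on 0. Of 24 integrin genes, 14 were detected on all arrays (58.3%), 7 on some and 3 on 0 (12.5%). ITGB1, the shared beta chain, lay at percentile 99.5, ITGA6 at percentile 90.9, ITGAV at percentile 89.8, and ITGA4, ITGB6 and ITGA10 were detected on 0 arrays.

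Detected genes had promoters richer in CpG. Sequences from 250 bases upstream of the start, from RefSeq on GRCh38.p14, were found for 13781 of the 17471 genes. They held a median of 21 CG dinucleotides for 10002 genes detected on all arrays, 7 for 2360 detected on some and 5 for 1419 detected on 0, against 18 over the 13781 matched genes and 10 over all 27195 promoters of the table. The letters TATAAA, on either strand, stood in 6.27% of the promoters of genes detected on all arrays and 16.4% of those detected on 0, against 8.53% of the matched genes and 11.3% of all promoters. The letters TGACG, on either strand, stood in 29.2% and 17.3%, against 26% of the matched genes and 21.3% of all; TGACG holds a CG itself. Among the 83 matched genes of the 100 brightest, TATAAA stood in 12.05%, above the share of the matched genes. These are descriptions over genes, which are not replicates. The promoter of the brightest gene and that of the basal keratin gene KRT5, detected on 0 arrays, are shown as examples, with each CG in capitals.
EEF1A1 promoter, chr6:73521033-73521282, minus strand: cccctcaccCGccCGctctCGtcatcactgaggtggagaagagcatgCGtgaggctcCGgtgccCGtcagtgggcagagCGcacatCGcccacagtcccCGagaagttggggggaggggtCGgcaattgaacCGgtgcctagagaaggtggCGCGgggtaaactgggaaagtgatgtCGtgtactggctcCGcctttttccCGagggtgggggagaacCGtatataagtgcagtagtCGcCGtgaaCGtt
KRT5 promoter, chr12:52520395-52520644, minus strand: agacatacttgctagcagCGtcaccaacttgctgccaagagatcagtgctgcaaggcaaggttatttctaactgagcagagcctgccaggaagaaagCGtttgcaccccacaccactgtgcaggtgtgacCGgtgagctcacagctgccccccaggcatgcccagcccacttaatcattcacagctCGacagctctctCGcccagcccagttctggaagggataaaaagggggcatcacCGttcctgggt
The EEF1A1 promoter held 20 CG and the KRT5 promoter 6.

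**Figure D3:**
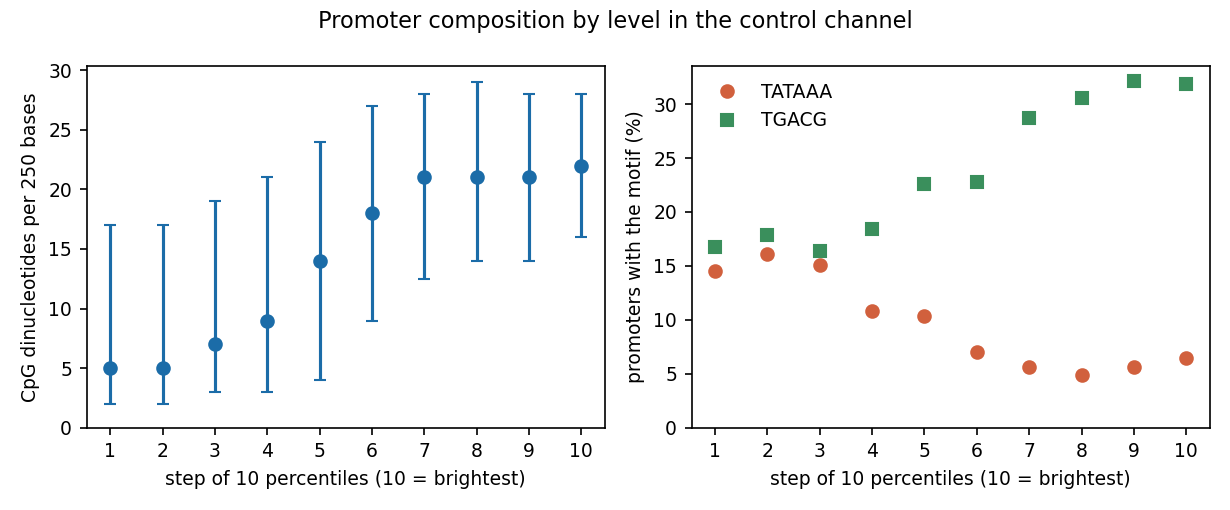
Left, CG dinucleotides in the 250 bases upstream of the start, as median (point) with lower and upper quartile (bars), in steps of 10 percentiles of a gene's brightest probe in the control channel. Right, share of those promoters with TATAAA or TGACG on either strand; the median goes from 5 CG in the dimmest step to 22 in the brightest, and the share with TATAAA is 14.5% in the dimmest step, 4.94% in the eighth and 6.43% in the brightest.

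Over all probes together, the ranks were close between arrays. Probes differ widely in brightness, so such a correlation can be high while single probes differ. Spearman's rank correlation between 2 arrays, over all 41000 probes, ran from 0.969 to 0.9949 with a median of 0.984 over 105 pairs. Genes are not independent replicates and all arrays share their probes, so these are descriptions. The median correlation was 0.987 (0.984 to 0.9949) for 21 pairs on the same slide. On different slides it was 0.984 (0.971 to 0.992) for 15 pairs with the same replicate number and 0.981 (0.969 to 0.992) for 69 pairs with different numbers, so the ranges overlapped. Dim probes varied more. Probes above percentile 90 had a median SD of 0.381 percentile units over the 15 arrays, and those between percentiles 10 and 20 one of 5.55. On the log2 scale the same median SDs were 0.160 and 0.654, and those of the 3 steps from percentile 60 to 90 were 0.176, 0.161 and 0.154. The smallest SD of the level among named genes detected on all arrays was that of PAFAH1B2 (0.0312, levels from -0.69 to -0.57), followed by TCTN1, MEPCE, AIF1L, ALG10B, PARP1, SLC9D1, POT1, CIPC and UBALD1, with SDs from 0.0343 to 0.0426. PARP1, a DNA repair enzyme, lay at percentile 96.8 with levels from 4.55 to 4.69. The largest SD was that of EPN1 (3.00), followed by EIF4A2, CD63, C19orf33, DHX16, HDAC2, ARHGAP26, ACAT2, CKLF and RBBP8. HIPP replicate 2 was the farthest array for 8 of these 10. For CKLF, 1 of the 8, the SD was 1.49 with it and 1.46 without it, whereas without it the SD of EIF4A2, a translation initiation helicase, went from 2.44 to 0.137 and that of CD63 from 2.03 to 0.166.

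The 3 array sets were compared to ask whether the control RNA was the same beside each treatment. In limma with Benjamini-Hochberg adjustment, over 29367 probes detected on at least 8 arrays, 6 probes (0.0204%) differed between the shCtBP2 and HIPP sets, 0 (0.0%) between shCtBP2 and P4, and 5 (0.017%) between HIPP and P4 at an adjusted p under 0.05. Shares this small mean that almost no probe was called. Before adjustment, limma gave a p under 0.05 for 4342 of the 29367 probes between shCtBP2 and HIPP. The same count was 1085 between shCtBP2 and P4 and 2271 between HIPP and P4. Few calls after adjustment thus do not show that the control RNA was the same in the sets. With the same adjustment, the test named in the methods of the study called 0, 0 and 1 probes in this order. Of these, 0 were among the limma calls, so the calls of NUPR1, IRX5 and COL20A1 below were made by limma only. Of the 6 probes, 2 were higher (0.00681% of those tested) and 4 lower (0.0136%) in the shCtBP2 set, against 2 and 1 with median centring and 2 and 0 with quantile normalization. Of the 5 probes, 2 were higher (0.00681%) and 3 lower (0.0102%) in the HIPP set, against 1 and 7 with median centring, 0 and 4 with quantile normalization, and 4 and 0 with slide as a block. No member of the 24 gene lists was among the calls. NUPR1, a stress-induced nuclear protein, was lower in the shCtBP2 set by -1.71 ± 0.24 (log2, SE, adjusted p = 0.0422). Its levels were -4.14, -4.06, -4.13, -4.22 and -4.20 on the shCtBP2 arrays and -2.02, -1.95, -2.13, -3.22 and -2.87 on the HIPP arrays. The sets did not overlap. IRX5, a homeobox gene, was lower by -0.67 ± 0.10 (adjusted p = 0.0422), with levels from -0.50 to -0.07 against 0.24 to 0.40. COL20A1, a collagen gene named after its values were seen, was higher in the HIPP set than in either other set, by -1.66 ± 0.20 for shCtBP2 minus HIPP (adjusted p = 0.0237) and 1.36 ± 0.20 for HIPP minus P4 (adjusted p = 0.0442). It was detected on 5 of the 5 HIPP arrays and on 4 of the 5 of each other set, so its level there rests in part on an undetected value. The other calls carried no symbol. These counts depended on single arrays: without shCtBP2 replicate 1, or without replicate 2, 1526 probes differed between the shCtBP2 and HIPP sets, and without HIPP replicate 1, HIPP replicate 2 or P4 replicate 4 the count was 0. Without P4 replicate 5, 24 probes differed between HIPP and P4, and without HIPP replicates 1 or 2 or P4 replicates 2, 3 or 4 the count was 0. Within slide 3, 774 probes differed between 2 shCtBP2 and 2 HIPP arrays, whose replicate numbers also differed. Slide 2 held only 1 P4 array beside its 3 HIPP arrays, so a fit within it, which called 0 probes, says little of the sets, and no slide held both shCtBP2 and P4 arrays. With slide as a block, 3 probes differed between shCtBP2 and HIPP, 1 of them among the 6, and 4 between HIPP and P4, 0 of them among the 5, so the HIPP minus P4 call of COL20A1 was lost. With slide and replicate number both in the fit, the counts were 0, 0 and 2, so the calls of NUPR1, IRX5 and COL20A1 between shCtBP2 and HIPP were lost too.

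Slide and replicate number together took most of the sum of squares. Both are given by the labels or file headers, and the fit was added after the data had been seen. In a limma F-test over 29196 probes with no missing value, slide was called for 18205 (62.4%) and replicate number for 15877 (54.4%) with both in the model, at an adjusted p under 0.05, while array set, fitted with both, was called for 1 (0.00343%). Over 25106 probes detected on all arrays, the share of the sum of squares taken by array set alone was 21.0% with 2 of the 14 degrees of freedom, by slide 62.3% with 3, by replicate number 38.7% with 4, and by slide and replicate number together 90.5% with 7. For genes by their brightest probe, detected on all arrays, the shares called were 62.8% for replicate number and 63.6% for slide. By the same probes, of 13 luminal genes, 6 were called for replicate number and 8 for slide, of 22 glycolysis genes 14 and 14, of 19 proliferation genes 11 and 9, and of 43 PAM50 genes 30 and 28, to be read against those shares. The fitted ranges were mostly small. Among 18352 named probes detected on all arrays, the median range between replicate numbers was 0.374 log2 units over 11508 called probes and exceeded 1 in 264, and between slides it was 0.283 over 11353 and exceeded 1 in 1028.

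Arrays with the same replicate number had nearly the same level of some genes in all 3 sets. FOS, an immediate early transcription factor that growth signals and handling switch on within minutes, had levels of -2.59, 0.30, -1.81, -1.08 and -1.98 on shCtBP2 replicates 1 to 5. On the HIPP arrays it had -2.45, 0.41, -1.86, -1.29 and -2.14, and on the P4 arrays -2.54, 0.30, -2.02, -1.36 and -2.12. Replicate 2 was the highest array of every set, and the numbers did not overlap except 3 and 5. The mean over the 3 sets was 0.34 ± 0.07 (SD, n = 3) for number 2 and -2.53 ± 0.07 for number 1 (limma F-test, adjusted p = 3.44e-08). EGR1, a zinc finger factor of the same early response, was lowest at number 1 (0.67 ± 0.15, SD, n = 3) and highest at number 4 (2.96 ± 0.23), with an adjusted p of 5.17e-06 by limma. DUSP1, a phosphatase that shuts off MAP kinases, was highest at number 2 (2.75 ± 0.06) and lowest at number 1 (1.68 ± 0.07), with an adjusted p of 3.32e-06 by limma. Of 12 early response genes, which were chosen after their values were seen, 12 were called for replicate number and 9 for slide, beside the 62.8% and 63.6% of genes given above, and the choice makes these counts a description. The other early genes differed in size and order. FOSB, JUN and FOSL1 were highest at number 2 in every set, as FOS and DUSP1 were. EGR1, ATF3, CCN1, IER2, IER3, KLF4 and MYC were not. JUN was lowest at number 4 in every set, where EGR1 was highest. FOSB had a fitted range of 1.33 between numbers, against 1.07 for DUSP1, and of 1.68 between slides. IER3, IER2 and ATF3 had ranges of 0.152, 0.326 and 0.337 between numbers. Whether arrays of one number carried the same control extract is not given in the sources used here. If they did, the 15 readings hold fewer independent RNA samples than arrays, and the p-values measure the spread between arrays.

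**Figure D4:**
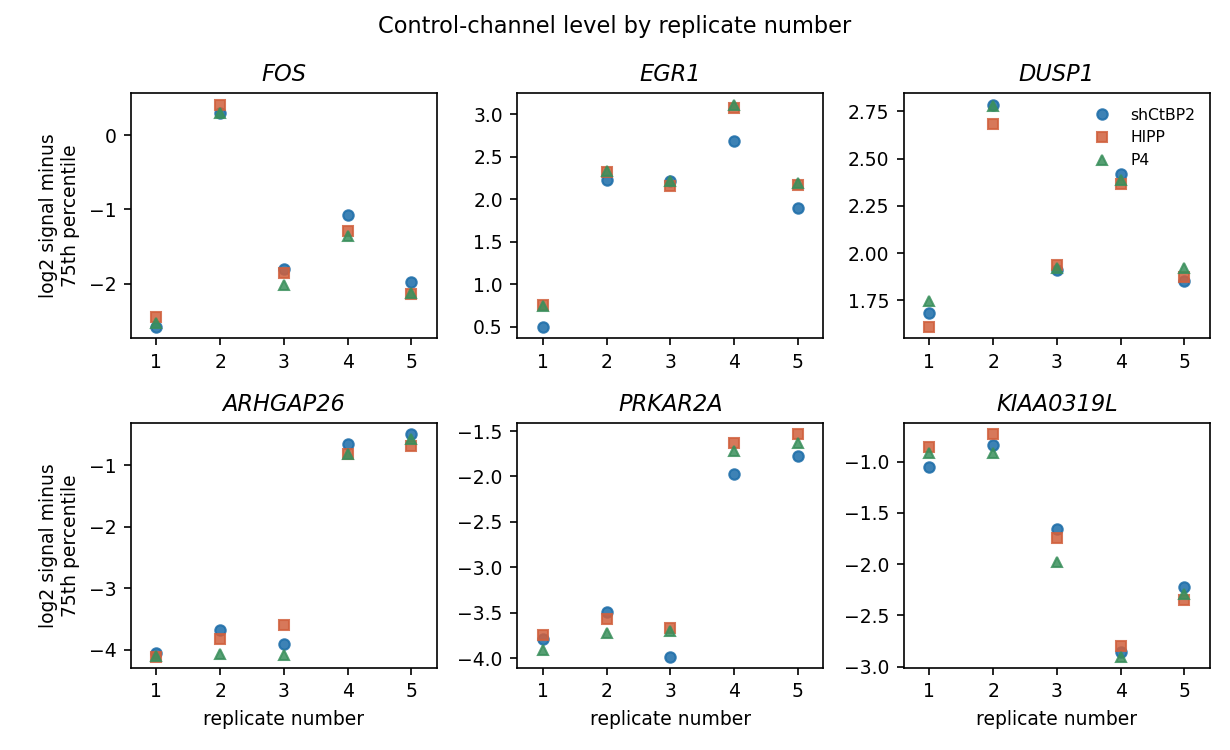
Level (log2 signal minus the array's 75th percentile) of FOS, EGR1, DUSP1, ARHGAP26, PRKAR2A and KIAA0319L in the control channel by replicate number, with 1 point per array and colours and symbols for the array sets. The 3 sets give nearly the same level at each number, as for FOS at number 2 (0.30 to 0.41) and number 1 (-2.59 to -2.45).

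The promoters of these early genes are shown because the genes moved with replicate number. Capitals mark TGACG, the core of a cAMP response element, on either strand, and TATAAA in FOS and DUSP1, or the CArG box bound by serum response factor in EGR1.
FOS promoter, chr14:75278578-75278827, plus strand: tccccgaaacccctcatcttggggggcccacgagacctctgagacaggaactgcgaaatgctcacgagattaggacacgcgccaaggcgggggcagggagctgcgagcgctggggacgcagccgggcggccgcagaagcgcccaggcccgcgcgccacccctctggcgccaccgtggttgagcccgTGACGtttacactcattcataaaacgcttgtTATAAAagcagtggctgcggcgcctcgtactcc
EGR1 promoter, chr5:138465229-138465478, plus strand: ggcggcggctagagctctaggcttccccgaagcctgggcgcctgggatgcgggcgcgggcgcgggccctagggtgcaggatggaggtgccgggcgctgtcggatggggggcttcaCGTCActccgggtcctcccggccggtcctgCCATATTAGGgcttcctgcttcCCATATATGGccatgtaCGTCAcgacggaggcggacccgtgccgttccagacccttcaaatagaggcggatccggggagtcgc
DUSP1 promoter, chr5:172771196-172771445, minus strand: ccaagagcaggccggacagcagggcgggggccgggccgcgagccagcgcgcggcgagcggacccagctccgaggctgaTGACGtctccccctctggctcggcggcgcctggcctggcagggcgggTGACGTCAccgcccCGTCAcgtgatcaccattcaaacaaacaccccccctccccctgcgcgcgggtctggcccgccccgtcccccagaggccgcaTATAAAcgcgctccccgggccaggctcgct
FOS held 1 TGACG and 1 TATAAA, EGR1 2 TGACG and 2 CArG boxes, and DUSP1 4 TGACG, of which some overlap as opposite strands, and 1 TATAAA. A CArG box stood in 1.18% of all 27195 promoters of the same length. FOS and DUSP1 held 0 CArG boxes in this window.

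Of the 10 named genes with the largest fitted range between replicate numbers, chosen for that range, several had other probes with a much smaller range. ARHGAP26, a GTPase activator, had levels of -4.12 to -3.60 at numbers 1 to 3 and -0.82 to -0.50 at numbers 4 and 5 in all sets, a fitted range of 3.44, whereas its other probe, at percentile 80.3, had a range of 0.161. PRKAR2A, a regulatory subunit of protein kinase A, had levels of -3.99 to -3.50 at numbers 1 to 3 and -1.97 to -1.53 at numbers 4 and 5, against a range of 0.315 at its other probe. KIAA0319L, CAND1 and ARHGAP35 were higher at numbers 1 and 2 than at numbers 3 to 5, with fitted ranges of 2.03, 1.88 and 1.79. Their other probes had ranges from 0.309 to 0.737. TEP1, a telomerase-associated protein, was lowest at number 3 (-4.33 ± 0.19, SD, n = 3) and highest at number 5 (-2.51 ± 0.07). RNU12, a small nuclear RNA, lay between -5.53 and -4.62 at numbers 1 and 2 and between -3.86 and -2.91 at numbers 3 to 5. SLC26A1, an anion exchanger, was less even, with a spread of up to 2.78 within a number.

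The genes with the largest fitted range between slides were chosen for that range, so their values are a description. CKLF, a chemokine-like factor, had levels of -1.33, -1.57, -1.35 and -1.34 on the 4 arrays of slide 1 and -4.52, -4.59, -4.51 and -4.17 on those of slide 2. On slide 3 it had -1.73, -1.84, -1.27 and -1.63 and on slide 4 -4.07, -4.10 and -4.56. Slides 1 and 3 were high and slides 2 and 4 low, with no overlap, and the value of -4.17 was that of P4 replicate 5. The other 2 CKLF probes, at percentiles 96.0 and 92.2, had slide ranges of 0.072 and 0.123. NACA4P and RPL22, a ribosomal protein gene read here by 1 of its 4 probes, and 1 of the 3 ANXA2 probes were likewise high on slides 1 and 3. Their fitted means were lowest on slide 4, whereas that of CKLF was lowest on slide 2. THBS2, a matrix thrombospondin, KLK2, a kallikrein, and CHRNB2, an acetylcholine receptor subunit, were high on slides 2 and 3 and lowest on slide 4, with fitted ranges of 2.84, 2.67 and 2.63. NPBWR1 and PRSS36 were highest on slides 1 and 3, and TMEM259 had a fitted range of 3.04, with shCtBP2 replicate 4 at -2.54 against 0.75 to 2.06 on the other shCtBP2 arrays and 2.55 to 2.82 on the P4 arrays of slide 1. Within the shCtBP2 set, slide and replicate number cannot be told apart. Probe base composition moved with slide: the median slide range was 0.194 for the probes of lowest GC (16.7% to 36.7%) and 0.347 for those of highest GC (53.3% to 88.3%), and its part in the slide differences was not tested.

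**Figure D5:**
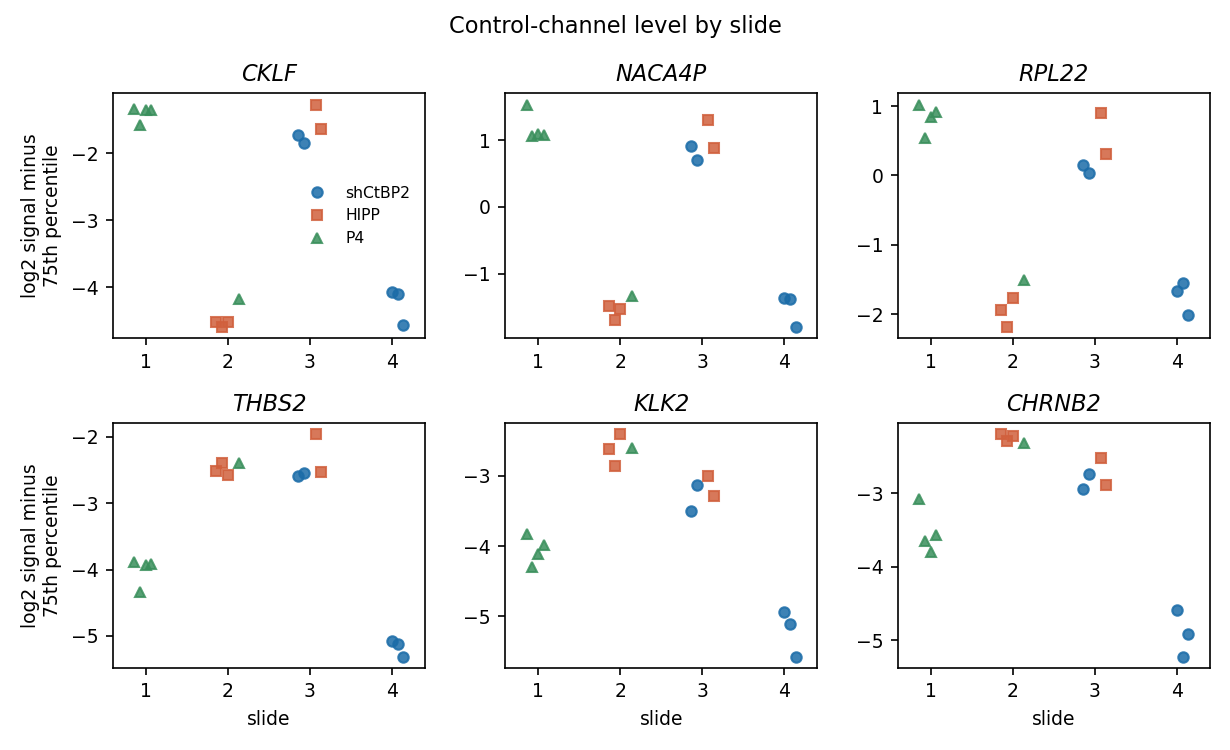
Level (log2 signal minus the array's 75th percentile) of CKLF, NACA4P, RPL22, THBS2, KLK2 and CHRNB2 in the control channel by slide, with 1 point per array, spread sideways by replicate number. CKLF, NACA4P and RPL22 are high on slides 1 and 3, and the single P4 array on slide 2 lies with the HIPP arrays of that slide.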

How the data were processed

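Total RNA of treated and control MDA-MB-231 cells was hybridised by the authors to Agilent Whole Human Genome 4 × 44 arrays (design 014850), with treated RNA in Cy5 and control RNA in Cy3 and no dye swap. The authors scanned the arrays and deposited the output of Feature Extraction 9.5.3.1 (protocol GE2-v5_95_Feb07), in which the deposited intensity of each spot had been background-subtracted and dye-normalized within the array against the treated channel. That step can carry treated signal into the control channel, and the background-subtracted signal before it was used as an alternative. Dim spots hold a positive substitute value. Numbers in the files use decimal commas. Only Cy3 columns were read, control spots and spots marked as outliers or non-uniform were left out, spots of a probe were averaged, and a probe counted as detected where at least 0.5 of its spots were well above background. A probe whose spots were left out on an array counted as not detected there (184 probes). The files list no depth, and the number of arrays limits the precision.

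Gene names were taken from RefSeq by accession (23845 probes), symbol (2018) or older symbol (963), and 14174 probes stayed unnamed. XIST and genes of the Y chromosome were left out. log2 values minus the 75th percentile of the array were compared with limma 3.58.1 in R 4.3.3 (3 array-set means, or slide and replicate number as factors, Benjamini-Hochberg, adjusted p under 0.05), after a test on simulated data. Ranks and promoters were computed with Python 3.11.15 and pandas 2.3.3. The members, the 24 gene lists and the comparisons were chosen with earlier results of these data known. The plan was to name the 2 to 8 genes that show the range of each list, and more were named for some, such as the mesenchymal and luminal lists. Also named were the 25 of highest rank and the 10 of largest and the 10 of smallest SD. Called genes of the array-set comparisons were named where detected on all arrays without overlap (up to 8 in each direction). The 10 genes of largest fitted range for slide and for replicate number, and FOS, EGR1, DUSP1 and the other early response genes, were added after their values were seen. The labels call the treated samples biological replicates and say nothing of separate control cultures, so p-values measure the spread between arrays. Alternatives covered the signal column, background correction, scaling, filters, probe choice, slide, replicate number and leaving out each array.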

Additional observations from a re-analysis of the deposited data

Results flagged for a closer look

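Over 47 genes and the share of detected spots, 144 groups of 5 control readings were checked for an array far from the other 4 (Dixon's ratio above 0.71), which chance gives in about 1 group of 20, and 22 groups had one. Most of these genes were named because of their large or small spread. HIPP replicate 2 accounted for 7 of them. On that array EPN1, an endocytic adaptor, had a level of 8.45 against -3.32 to -2.36 on the other HIPP arrays, EIF4A2 -4.29 against 4.93 to 5.22, CD63 -1.61 against 5.93 to 6.39, C19orf33 -1.29 against 5.06 to 5.44, DHX16 -4.71 against 1.52 to 1.83, HDAC2, a histone deacetylase, -1.67 against 4.52 to 4.92, and ACAT2 -1.97 against 4.19 to 4.39.

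P4 replicate 5, the P4 array that shared a slide with HIPP arrays, lay apart from the other P4 arrays for CKLF (-4.17), TMEM259 (1.90), THBS2 (-2.39), NACA4P (-1.33), RPL22 (-1.50) and KLK2 (-2.61). In P4 replicate 3, RBBP8, a DNA end resection factor, had a level of -3.46 against 2.24 to 2.38. In the shCtBP2 set, DHX16 was at -0.059 in replicate 3 against 1.53 to 1.88, and TMEM259 at -2.54 in replicate 4. In the HIPP set, SLC26A1 was at -2.06 in replicate 3 and THBS2 at -1.96 in replicate 4.

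The remaining arrays far from the rest concerned genes of very small spread, where the distance itself was small. ALG10B was at -1.99 in shCtBP2 replicate 3 (others -2.05 to -2.03) and at -1.93 in P4 replicate 1 (others -2.04 to -2.01), SLC9D1 at -0.67 in shCtBP2 replicate 1 (others -0.62 to -0.61), and MEPCE at 1.94 in P4 replicate 1 (others 1.95 to 1.95).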

How the results depend on the processing

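Detection on all arrays (25106 probes) ran from 25107 to 25585 when each array was left out in turn, and was 29289 with the looser flag for a positive and significant signal. The median rank correlation stayed within 0.9781 and 0.9898. Of the 25 brightest genes, 24 to 25 remained without any single array, 18 with each of the other signal columns, and 9 when the median over a gene's probes replaced the brightest probe. Slide was called for 15229 to 24790 probes and replicate number for 12060 to 16381 over the alternatives run.

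The array-set counts moved by over 1.5 times in 22 settings and not in 10 for shCtBP2 minus HIPP, in 4 and 27 for shCtBP2 minus P4, and in 21 and 11 for HIPP minus P4. For shCtBP2 minus HIPP (6), they were 3 with median centring, 2 with quantile normalization, 1 with the mean over a gene's probes, 3 with slide as a block, 1 with slide as a random block, 0 by the methods' t-test, and, chosen after seeing the data, 1 without the shCtBP2 arrays of slide 4, 0 without the P4 arrays of slide 1, 774 within slide 3 and 0 with slide and replicate number as blocks. Leaving out single arrays gave 0 to 1526. For shCtBP2 minus P4 (0), they were 10 with normexp and quantile normalization, 3 with slide as a block, 1 with the replicate block and 2 without the P4 arrays of slide 1, and 0 to 0 without single arrays. For HIPP minus P4 (5), they were 8 with median centring, 3 with no filter, 3 with detection on all arrays, 3 with the mean over a gene's probes, 0 with slide as a random block, 1 by the methods' t-test, 8 without the shCtBP2 arrays of slide 4, 2 without the P4 arrays of slide 1, 0 within slide 2 (a fit with 1 P4 array, assumed to vary like the others, that says nothing of stability), 2 with slide and replicate number as blocks, and 0 to 24 without single arrays. Median centring moved the median difference of all probes to 0.20, 0.08 and -0.11 in this order. The cause of these moves was not tested.

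With the replicate block alone, the counts were 8, 1 and 5. Deviations of same-numbered arrays from their set means correlated from -0.41 to 0.65 (median 0.33, n = 15), those of other pairs from -0.66 to 0.69 (median -0.05, n = 60). Same-numbered pairs differed by set: 0.33 to 0.65 for shCtBP2 with P4, -0.22 to 0.55 for shCtBP2 with HIPP, and -0.41 to 0.55 for HIPP with P4. Other pairs of shCtBP2 with P4 ran from -0.58 to 0.51. The numbers are thus a hint from the data and not a pairing by design. Dim probes limit what can be said: below percentile 30, 0% of the probes were detected on all arrays.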
